A study of Mus musculus with 4 samples.

Results

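Plasma cells are the antibody-secreting end stage of the B lineage, and 7 genes tied to that state were followed in the RNA of hematopoietic stem and progenitor cells: *Irf4*, *Prdm1*, *Xbp1*, *Pou2af1*, *Igj*, *Sdc1* and *Tnfrsf17*. Every non-control probe that the array's design assigns to one of these symbols was taken, which gave 7 genes with 8 of the 41174 probes (28095 distinct gene names or accessions), a pair for *Igj* and 1 for each other gene. *Igj* is the array's older name for *Jchain*. All 8 probes carry a RefSeq accession that matched a current gene. The genes were picked with results of the genotype comparison already known, so their values in that comparison are a description and no test is read from them.

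A B cell becomes a plasma cell when *Irf4* and *Prdm1*, which encode the transcription factors IRF4 and Blimp-1, shut down the B cell program, and when *Xbp1*, the transcription factor of the unfolded protein response, enlarges the secretory pathway. *Pou2af1* encodes OBF-1, a coactivator that works with octamer-binding factors at immunoglobulin promoters. *Igj* encodes the J chain that joins IgM and IgA into polymers, *Sdc1* encodes the surface proteoglycan CD138 used to sort plasma cells, and *Tnfrsf17* encodes BCMA, a receptor for the survival factors APRIL and BAFF. Irf4, Xbp1 and Pou2af1 are also used by other blood cells, so none of these is by itself proof of a plasma cell.

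The cells were LSK cells, the lineage-negative, Sca-1-positive, c-Kit-positive fraction of bone marrow, sorted from C57BL/6J mice in which both *Meis1* alleles carry loxP sites around exon 8. Meis1-deficient animals also carried Mx1-Cre and control animals did not. Mx1-Cre is switched on by interferon and acts in cells other than blood cells too. According to the labels and the mouse methods, mice of both genotypes aged 4 to 8 weeks received 4 injections of poly(I:C) at 1.5 ug/g, whereas the design text and the array methods call the control mice sham-treated, and cells were taken 1 week after treatment. RNA was pooled from 6 mice, with 2 pools per genotype, and each pool was hybridized to 1 single-color array of 60-base probes.

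The first pools of both genotypes shared slide 1 and the second pools shared slide 2, so each slide gives a comparison of 1 array with 1. The slides were also scanned in separate sessions, and slide, session and replicate cannot be told apart. Between 49.2% and 57.4% of spots were well above background. The Meis1-deficient array of slide 2 was the dimmest, with an unscaled 75th percentile signal of 90.3, against 147 to 154 on the others. *Kit* and *Ly6a*, the genes of the sorting markers c-Kit and Sca-1, were well above background on all 4 arrays, as were all 13 genes of the LSK and HSC marker list. The targeted gene, *Meis1*, had log2 levels of 0.25 and 0.22 in Meis1-deficient and 1.02 and 1.45 in control cells, by a probe that was not placed relative to the deleted exon and so does not check the deletion. Here and throughout, a level is the log2 of the processed signal minus the log2 of its array's 75th percentile, so it can be compared between arrays for a probe but not between probes.

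Transcripts for most of the 7 genes were detected in the LSK sorts. Both *Igj* probes and those of *Pou2af1*, *Xbp1* and *Sdc1*, 5 of the 8, were well above background on all 4 arrays. *Irf4* and *Tnfrsf17* each fell short on 1 Meis1-deficient array. *Prdm1* was well above background on 1 array alone, control replicate 1, and was therefore not tested. The tests covered 22008 probes that were well above background in both pools of 1 genotype or the other, including the remaining 7 probes of these genes.

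Among the regulators, *Irf4* (chromosome 13, 30858459 to 30858518, plus strand, mm9, as are the other probe positions) was low in both Meis1-deficient pools. Its log2 levels were -3.94 and -3.89 in Meis1-deficient replicates 1 and 2, and -0.37 and -2.73 in control replicates 1 and 2. Both Meis1-deficient arrays lay below both control arrays. The signal was 11.9-fold lower on slide 1 and, since the Meis1-deficient array of slide 2 was not well above background, at least 1.43-fold lower on slide 2. With normexp background correction, which adds a constant offset and shrinks differences of dim probes, the log2 differences were -1.17 on slide 1 and 0.15 on slide 2, and -0.51 between the genotype means. The genotype means differed by -2.36 (SE 0.79, limma), which corresponds to at least 4.13-fold when that array is set to the lowest signal measured on it. The control pools differed from each other by 5.13-fold.

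*Prdm1* (chromosome 10, 44157291 to 44157350, minus strand) could be read on 1 array. Levels on the log2 scale were -6.12 and -5.24 in Meis1-deficient and -2.53 and -5.19 in control cells. Control replicate 1 stood above the other 3, none of which was well above background. Against the lowest signal measured on the Meis1-deficient array of slide 1, this was at least 3.20-fold, and on slide 2 both arrays gave only an upper limit.

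*Xbp1* (chromosome 11, 5424970 to 5425029, plus strand) ran in opposite directions on the slides. Its log2 levels were 1.04 and 1.89 in Meis1-deficient and 2.00 and 1.05 in control cells. The groups overlapped, with Meis1-deficient replicate 1 beside control replicate 2, and Meis1-deficient replicate 2 beside control replicate 1. The signal was 1.95-fold lower in Meis1-deficient cells on slide 1 and 1.80-fold higher on slide 2, and the genotype means differed by -0.057 (SE 0.55). That difference was positive when arrays were centered on their medians.

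*Pou2af1* (chromosome 9, 51048108 to 51048167, plus strand) was highest in control replicate 1. The log2 levels read 1.34 and 2.29 in Meis1-deficient and 4.14 and 2.07 in control cells. The other control pool lay between the Meis1-deficient pools, so the groups overlapped. The signal was 6.97-fold lower in Meis1-deficient cells on slide 1. On slide 2 it was 1.17-fold higher, a direction that turned with quantile normalization and with no scaling. The control pools differed by 4.19-fold, and the genotype means by -1.29 (SE 0.77).

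Among the products of the secretory cell, *Igj* was measured by 2 probes at separate places in the gene, of which A_51_P150710 (chromosome 5, 88949919 to 88949978, minus strand) is the brighter. Its log2 levels were 1.38 and 4.34 in Meis1-deficient and 4.27 and 3.30 in control cells. Meis1-deficient replicate 1 alone was low, and replicate 2 was the highest of the 4. The genotype means were 2.86 ± 2.10 (SD, n = 2) and 3.79 ± 0.69 (SD, n = 2), so that the spread within the Meis1-deficient group exceeded the difference of -0.93 (SE 0.98).

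The second *Igj* probe, A_51_P150705 (chromosome 5, 88950089 to 88950148), gave 0.18 and 3.14 in Meis1-deficient and 3.17 and 2.34 in control cells. On slide 1 the probes read 7.44-fold and 7.93-fold lower signal in Meis1-deficient cells. On slide 2 they read 2.06-fold and 1.74-fold higher signal. Both probes thus placed Meis1-deficient replicate 1 apart from the other 3 arrays, and the difference of means turned positive for both when that array was left out (0.56 and 0.38).

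*Sdc1* (chromosome 12, 8799383 to 8799442, plus strand) was the other gene whose groups did not overlap. On the log2 scale the levels were -2.09 and -0.24 in Meis1-deficient and 1.02 and 0.044 in control cells. Meis1-deficient replicate 1 was far below the rest, while replicate 2 was just under the lower control. The signal was 8.65-fold lower on slide 1 and 1.22-fold lower on slide 2, and the genotype means differed by -1.70 (SE 0.73). Under normexp background correction, the log2 difference on slide 1 was -1.77 and that between the genotype means -0.98.

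*Tnfrsf17* (chromosome 16, 11320045 to 11320104, plus strand) had the widest range. Its log2 levels were -5.23 and -0.27 in Meis1-deficient and -0.17 and -2.00 in control cells. Meis1-deficient replicate 1 was not well above background, and replicate 2 lay between the control pools. The signal was at least 16.4-fold lower in Meis1-deficient cells on slide 1 and 3.32-fold higher on slide 2. The genotype means differed by -1.67 (SE 1.56) with the reading of that array, and by at least 2.22-fold when it is set to the lowest signal measured on it. Without Meis1-deficient replicate 1, the difference was 0.82. With normexp, the log2 difference on slide 1 was -0.97 and that between the genotype means -0.032.

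**Figure D1:**
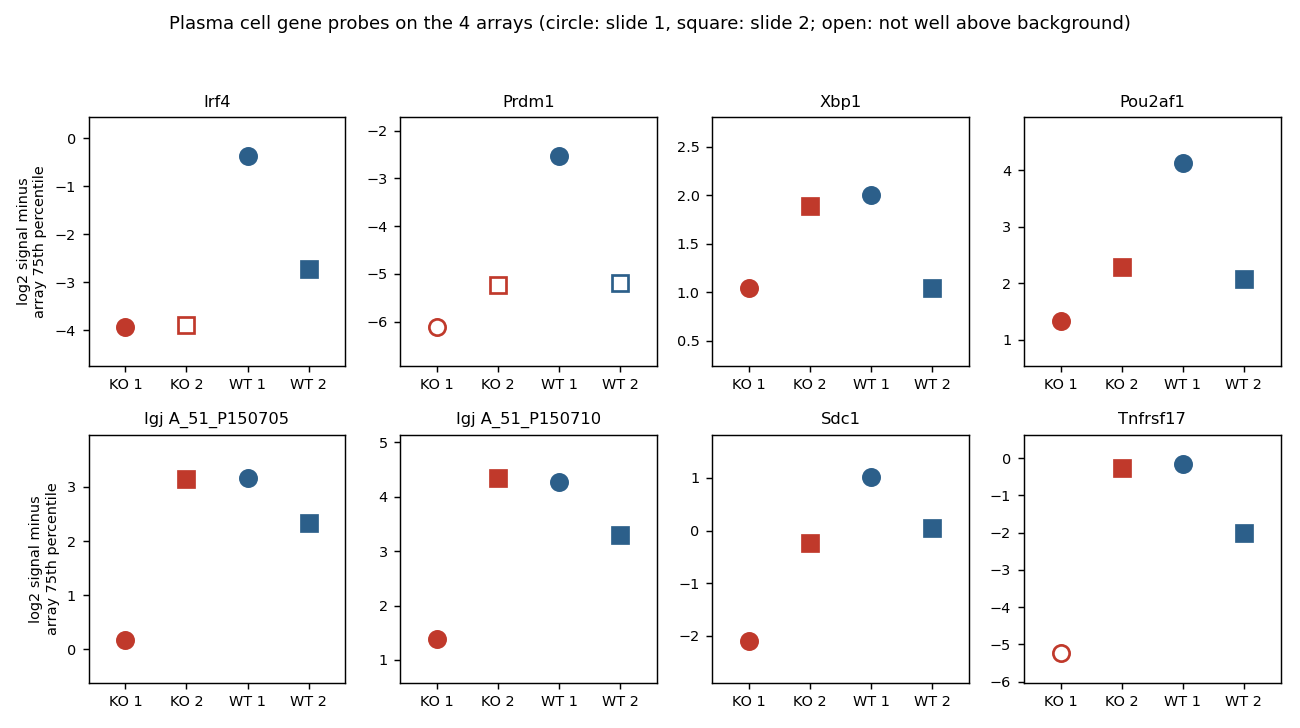
Log2 signal minus the array's 75th percentile (vertical axes, with a range of their own in each panel) for the 8 probes on the 4 arrays, Meis1-KO (red) and Meis1-WT (blue), with circles for slide 1 and squares for slide 2. Open symbols were not well above background, KO 1 is drawn lowest for every probe (among open symbols the order has no meaning), and WT 1 is the highest for all but the brighter *Igj* probe.

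Sequences are shown for the pair of *Igj* probes, which lie apart in the gene and read alike on the 4 arrays, and for those of *Irf4* and *Sdc1*, whose groups did not overlap. The first 30 of the 60 bases of each probe are given, 5′ to 3′, in lower case because no stretch is singled out.
Igj A_51_P150710: ctgtactagtctttctcttaacctctcact
Igj A_51_P150705: gtaaatcctcatgtctgctcaaggagatat
Irf4 A_51_P514985: gacccattttcagtgctttgaggaacatga
Sdc1 A_52_P479269: atctgtatggtgccccatttttggcggccc

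Across the genes, the slides disagreed. Over the 6 tested genes, the median log2 difference between Meis1-deficient and control cells was -3.00 on slide 1 and 0.53 on slide 2, beside 0.025 and 0.13 over all tested probes. On slide 1, 7 of 7 tested probes were lower in Meis1-deficient cells (46.7% of all tested probes were), and 6 of 7 by more than 2-fold (3.64% of all). On slide 2, 2 of 7 were lower (44.0% of all) and 5 of 7 were higher (56.0% of all), and *Irf4* alone read lower by more than 2-fold (16.2% of all), although its bound on that slide is under 2-fold. The probes lower on slide 1 and higher on slide 2 numbered 5 of 7, against 25.7% of all.

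**Figure D2:**
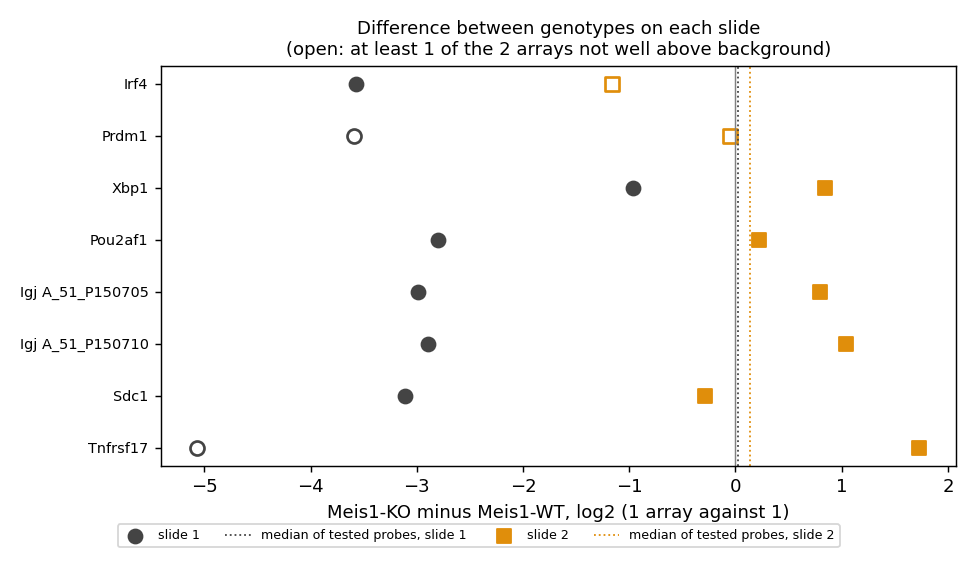
Log2 difference, Meis1-KO minus Meis1-WT, of 1 array against 1, for each probe on slide 1 (circles) and slide 2 (squares), with dotted lines at the medians of all tested probes (0.025 and 0.13). Open symbols rest on an array that was not well above background, so that their values are not measured differences. All slide 1 values lie left of 0, while on slide 2 those of *Xbp1*, *Pou2af1*, *Igj* and *Tnfrsf17* lie right of it.

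The slide 2 values also depend on how the dimmest array is scaled. With no scaling, their median was -0.24 instead of 0.53, while that of slide 1 was -2.99. In pooled RNA of this kind, fewer cells of a type and less RNA per cell cannot be told apart.

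The same 2 arrays held the extremes for nearly every probe. Control replicate 1 was highest and Meis1-deficient replicate 1 lowest for 6 of 7 tested probes (2.21% of all tested probes). Control replicate 1 exceeded control replicate 2 for 7 of 7 (47.6% of all), and by more than 2-fold for *Irf4*, *Pou2af1* and *Tnfrsf17*, 3 of 7 (5.13% of all). Meis1-deficient replicate 2 exceeded replicate 1 for 7 of 7 (56.3% of all), and by more than 2-fold for 4 of 7 (17.4% of all). For *Irf4* this order has no meaning, since replicate 2 was not well above background. Over the 6 genes, the median log2 difference was 1.41 between the control pools (replicate 1 minus 2) and -1.40 between the Meis1-deficient pools, beside a median of -1.48 between the genotype means.

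With both slides together, all 7 tested probes had lower means in Meis1-deficient cells, and none met the study's criteria of more than 2-fold and a p under 0.01 before adjustment. Those criteria took 0.600% of all tested probes as lower and 0.136% as higher. An unadjusted p under 0.05 was given to 1 of the 7, *Irf4*, by limma (2.81% of all tested probes), to 2, *Irf4* and *Sdc1*, with the slide as block (6.07% of all) and to 0 by the methods' t-test (2.40% of all). Both *Irf4* and *Sdc1*, 2 of 7, had Meis1-deficient arrays below both controls, as did 10.9% of all tested probes, and 0 of 7 had both above (16.0% of all). The median log2 fold change over the 6 genes was -1.48, beside 0.082 over all tested probes. Leaving out Meis1-deficient replicate 1 brought it to -0.20 and leaving out replicate 2 to -2.40.

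Same-numbered arrays share a slide, and with a slide term as block *Irf4* met the criteria (SE 0.61), 1 of 7 against 1.39% of all tested probes as lower and 0.591% as higher. Without Meis1-deficient replicate 2, 4 of the probes met them, both for *Igj* and those for *Sdc1* and *Tnfrsf17* (1.19% of all tested probes were then lower by the criteria). Without control replicate 2, *Irf4* met them (0.332% of all). Nothing is read from these counts about the genes, which were chosen on this contrast.

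The remaining genes of the plasma cell program, a list of 15 all tested, had smaller median differences. Of these, 13 were lower in Meis1-deficient cells on slide 1 and 3 on slide 2, with median log2 differences of -0.53 and 0.35. *Ell2*, an elongation factor that favors the secretory form of the immunoglobulin heavy chain, met the criteria, with log2 levels of -1.66 and -2.44 in Meis1-deficient and -0.16 and -0.41 in control cells. The log2 fold change of *Ell2* was -1.76 (SE 0.48, unadjusted p = 0.00974, adjusted p = 0.983 by limma with Benjamini-Hochberg over all tested probes), and it was lower on both slides. The call was lost with median centering, no scaling, normexp, no filter on dim probes, an intensity trend and the methods' t-test, and without Meis1-deficient replicate 2 or either control. *Slamf7*, a surface receptor of plasma cells, met them not in the main comparison but with the slide as a block and without Meis1-deficient replicate 1 (at least 3.04-fold lower, since 1 of the Meis1-deficient arrays was not well above background). No gene of this list was higher by the criteria.

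Other genes of the list showed the split of *Igj*. *Mzb1*, an endoplasmic reticulum protein of B and plasma cells, had log2 levels of -3.79 and -0.12 in Meis1-deficient and 0.42 and -0.92 in control cells. Its differences were -4.21 on slide 1 and 0.80 on slide 2. *Mzb1* and *Slamf7* were named here after their values had been seen.

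The receptors that share ligands with BCMA did not move together. *Tnfrsf13b*, which encodes TACI, had log2 levels of 2.15 and 3.02 in Meis1-deficient and 2.16 and 1.81 in control cells. *Tnfrsf13c*, which encodes the BAFF receptor of mature B cells, had 0.56 and 0.68 in Meis1-deficient and 2.43 and 1.54 in control cells, with groups that did not overlap and a log2 fold change of -1.36 (SE 0.49, adjusted p = 0.983 by limma). The gene for BAFF itself, *Tnfsf13b*, was not tested. Of this list, 3 of 4 genes had a probe, 2 were tested, and 0 met the criteria in either direction.

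Among 30 chaperone and secretory pathway genes of the endoplasmic reticulum, which XBP1 widely induces, 0 met the criteria in either direction. On slide 1, 27 of 30 were lower in Meis1-deficient cells, with a median of -0.27, and on slide 2 12 of 30 were lower, with a median of 0.51. By the naming rule, which takes the probes of highest mean signal and orders no gene by expression, *Sec61g*, *Ssr3* and *Hspa5* are given, with log2 fold changes of 0.67, 0.42 and -0.29. Of the sensors and stress effectors of the unfolded protein response, 7 of 8 genes were tested and 6 of those were lower on each slide, with medians of -0.55 and -1.08, and *Ddit3*, a factor of stress-induced death, met the criteria under the slide block and without Meis1-deficient replicate 1, but not otherwise (at least 2.19-fold lower, likewise with 1 Meis1-deficient array not well above background). *Ern1*, the sensor that splices *Xbp1* messenger RNA, had a log2 fold change of -0.30 (SE 0.45). The sensors *Atf6* and *Eif2ak3* had -0.93 and 0.30, the effectors *Atf4*, *Ppp1r15a* and *Atf3* had -0.21, -0.56 and -0.82, and *Trib3* was not tested.

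Of 10 factors of B cell identity, 6 were tested and 0 met the criteria. *Pax5*, the factor that holds B cells in their identity, and *Spib* were not well above background on any array, and *Ebf1* and *Ciita* were so on 1 array each. *Bcl6*, a repressor of *Prdm1*, had a log2 fold change of -0.94 (SE 0.78) while *Bach2*, another, was not well above background in control replicate 2, so its change is not given. *Foxo1*, *Tcf3*, *Id3* and *Mitf* had -0.086, 0.48, -0.23 and -0.55. Of the partners of OBF-1 and IRF4, *Pou2f2*, which encodes Oct-2, was not well above background on any array, while *Pou2f1*, *Spi1* and *Irf8* had log2 fold changes of -0.015, 0.66 and 0.60. *Ikzf1*, *Batf*, *Irf2* and *Ikzf3* had 0.067, 0.53, -0.54 and -0.48. All 7 tested of these 8 partner genes missed the criteria.

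**Figure D3:**
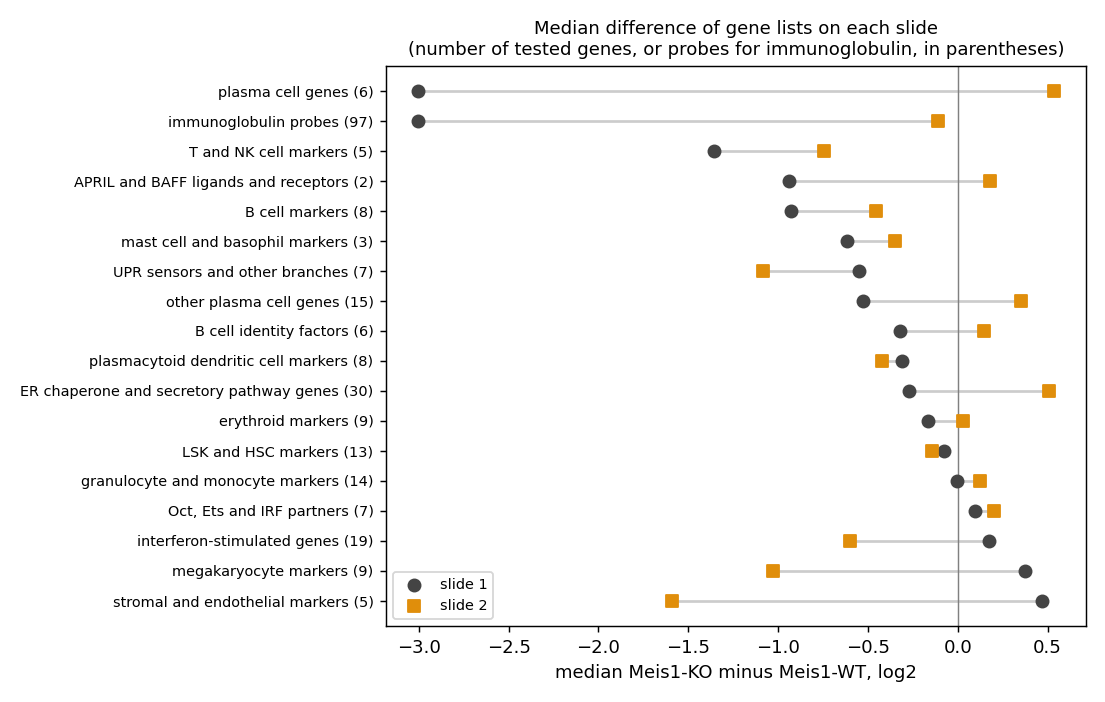
Median log2 difference, Meis1-KO minus Meis1-WT, on slide 1 (circles) and slide 2 (squares), for each gene list (1 probe a gene) and for immunoglobulin probes, with the number tested in parentheses. The plasma cell genes and the immunoglobulin probes have slide 1 medians of -3.00, beyond every other list shown. Some medians rest on readings not well above background, as that of the T and NK cell markers does.

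Markers of other cell types were read on the same arrays. According to the methods, the lineage antibodies of the sort were directed at B220, carried by B cells and plasmacytoid dendritic cells, at CD11b and Gr-1 of myeloid cells, at TER119 of erythroid cells and at CD3 of T cells, so that cells carrying these were gated out. Of 16 B cell markers, 8 were tested, 0 met the criteria and 8 of 8 had lower means in Meis1-deficient cells. *Dntt*, *Vpreb1* and *Cd74*, of which the first pair also mark early lymphoid progenitors, had log2 fold changes of -1.18, -0.22 and -1.83. *Cd74* missed the criteria in the main comparison and met them with the slide as block, no scaling, normexp and an intensity trend. The summed signal of the list, in units of the array's 75th percentile, was 56.3 and 37.4 in Meis1-deficient and 121 and 74.2 in control cells, most of it from *Dntt*. Without *Dntt* it was 14.0 and 12.8 in Meis1-deficient and 26.8 and 17.6 in control cells. *Vpreb1* was kept in that sum. Slide 1 had 8 of 8 tested markers lower in Meis1-deficient cells, with a median log2 difference of -0.93. Slide 2 had 6 of 8 lower, with a median of -0.45. Control replicate 1 exceeded control replicate 2 by a median of 0.87 over these markers. *Blk*, *Cd22*, *Cr2*, *Fcer2a*, *Igll1* and *Rag2* were not well above background on any array. Of 12 plasmacytoid dendritic cell markers, 8 were tested and 0 met the criteria, with sums of 16.3 and 15.7 in Meis1-deficient and 20.0 and 17.3 in control cells. *Runx2*, *Tcf4* and *Tlr9* had log2 fold changes of -0.18, -0.55 and 0.26, and *Siglech*, a defining marker, was not well above background on any array. Of the 8 tested, 6 had lower means in Meis1-deficient cells and 2 higher, with a median log2 fold change of -0.77. The median differences were -0.31 on slide 1 and -0.42 on slide 2. *Ly6d*, also on this list, had differences of -3.32 on slide 1 and 0.86 on slide 2.

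Immunoglobulin transcripts were also lower in Meis1-deficient cells on slide 1, and were divided on slide 2. Of 97 tested probes on immunoglobulin genes, 93 were lower in Meis1-deficient cells on slide 1 and 54 on slide 2, with medians of -3.00 and -0.11. The criteria took 17 as lower and 0 as higher, beside 0.600% and 0.136% of all tested probes, and 32 as lower with the slide as block (1.39% of all). In these probes, control replicate 1 exceeded replicate 2 by a median of 1.14 on the log2 scale. Granulocyte, monocyte and erythroid markers also differed between arrays. The summed signal of the granulocyte and monocyte list was 196 and 155 in Meis1-deficient and 209 and 84.6 in control cells. Without its brightest gene, *Mpo*, it was 78.8 and 72.7 in Meis1-deficient and 115 and 37.8 in control cells. The sum of the erythroid list was 104 and 250 in Meis1-deficient and 94.8 and 32.7 in control cells. Without *Hbb-b1*, a beta globin that makes up most of it, the erythroid sum was 10.6 and 6.13 in Meis1-deficient and 15.8 and 10.7 in control cells. *Ngp*, a neutrophil granule protein, had log2 levels of 0.36 and -2.91 in Meis1-deficient and 1.45 and -2.54 in control cells, high on slide 1 for both genotypes. *Hbb-b1* had 6.55 and 7.93 in Meis1-deficient and 6.30 and 4.46 in control cells, lowest in control replicate 2, whereas *Hba-a1*, an alpha globin, had 1.83 and -2.05 in Meis1-deficient and 2.57 and -2.24 in control cells, low on slide 2 for both genotypes. *Ngp*, *Hbb-b1* and *Hba-a1* were named after their values had been seen. The part of B cell, plasmacytoid, granulocyte and erythroid content, of pool make-up, of slide and of the dimmer array in the values of the 7 genes was not tested.

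The probes nearest to *Igj* over the 4 arrays were ranked by distance. Each probe was centered on its own mean and its distance to the brighter *Igj* probe was taken over the 4 log2 values, among 19490 probes with a gene symbol. The second *Igj* probe came first, at a distance of 0.198. It was followed by *Derl3*, a degradation factor of the endoplasmic reticulum, at 0.319, and 1 probe of *Sel1l*, another such factor, at 0.320. *Lss*, a sterol synthesis enzyme, was at 0.320, and *Ly6d*, a surface marker of B cell progenitors that is also on the plasmacytoid list, at 0.330. *LOC675659*, which the array describes as similar to an immunoglobulin heavy chain, was at 0.387.

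These neighbors shared the single low array of *Igj*, which follows from picking them by distance to it. *Derl3*, *Sel1l* and *Lss* were not well above background in Meis1-deficient replicate 1. A brighter *Sel1l* probe had log2 levels of 0.77 and 1.56 in Meis1-deficient and 1.75 and 1.72 in control cells, so that the gene's probes differed. Among the 7 genes, *Sdc1* stood at rank 61 from *Igj*, *Pou2af1* at 324, *Tnfrsf17* at 403, *Xbp1* at 438 and *Irf4* at 13480. These places are rough, since the readings of *Irf4* and *Tnfrsf17*, like those of *Derl3*, *Sel1l* and *Lss*, include an array that was not well above background, and *Prdm1* was not ranked.

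**Figure D4:**
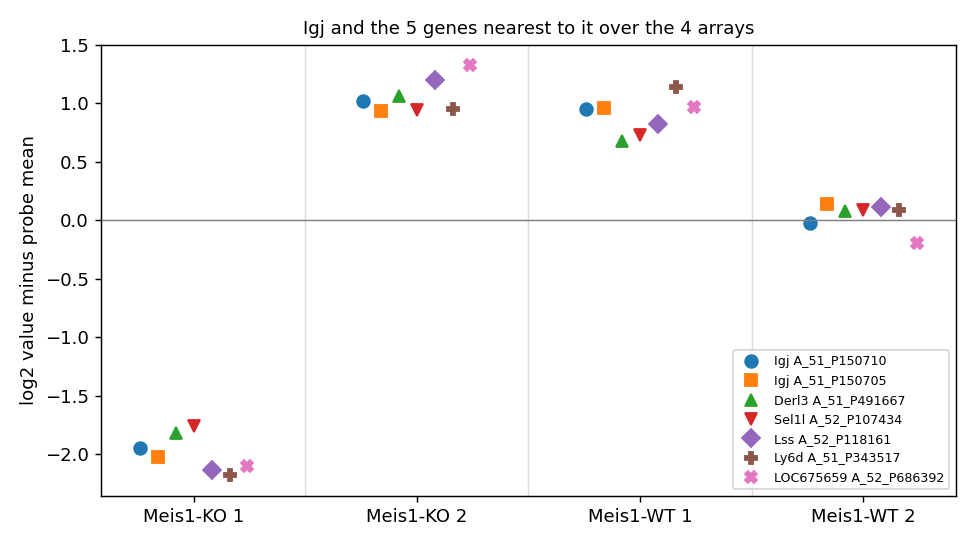
Log2 values minus the probe's mean (vertical axis) on the 4 arrays for both *Igj* probes and the 5 genes at the smallest distance from the brighter one (0.319 to 0.387). All 7 probes lie lowest in Meis1-KO 1, which for the neighbors follows from picking them by likeness to *Igj*.

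For the promoters, the 250 bases before the RefSeq start of each gene (GRCm38.p6) were searched on both strands for 6 motifs. The octamer is ATGCAAAT. The IRF core is GAAA followed after any 2 bases by another GAAA, and the Ets-IRF motif has GGAA as its first part instead. The CCAAT box, CCACG from the unfolded protein response element, and its overlapping core ACGT were the others. All 7 genes had an entry, and 32851 promoters of the same length served as background. The octamer was in 0 of 7 and in 1.60% of all promoters, and the Ets-IRF motif in 0 of 7 and 2.30% of all. The IRF core was in 1 of 7, *Tnfrsf17*, and in 2.98% of all. CCAAT was in 3 of 7 (33.8% of all), CCACG in 4 of 7 (28.3% of all) and ACGT in 3 of 7 (26.9% of all). A match is a run of letters and says nothing of binding.

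Promoters are printed for *Igj*, to which the other genes were set, for *Irf4*, whose groups did not overlap, for *Tnfrsf17*, whose slides differed most, and for *Pou2af1*, which held the most matches. Capitals mark motif matches on either strand. These are ACGT at 68 to 65 bases before the start of *Igj*, CCACG at 81 to 77 before that of *Irf4*, and the IRF core on the minus strand at 101 to 92 before that of *Tnfrsf17*. In *Pou2af1*, CCACG lies on the minus strand, CCAAT on both strands in overlap, and ACGT in overlap with a second CCACG. Regions are chr5:88527898-88528147 on the minus strand, and chr13:30748983-30749232, chr16:11313559-11313808 and chr9:51213440-51213689 on the plus strand.
Igj (Jchain): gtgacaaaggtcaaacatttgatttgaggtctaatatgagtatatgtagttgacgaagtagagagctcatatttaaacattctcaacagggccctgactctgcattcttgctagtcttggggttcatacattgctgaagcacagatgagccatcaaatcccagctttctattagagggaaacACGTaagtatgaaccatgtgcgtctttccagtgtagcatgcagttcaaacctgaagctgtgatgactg
Irf4: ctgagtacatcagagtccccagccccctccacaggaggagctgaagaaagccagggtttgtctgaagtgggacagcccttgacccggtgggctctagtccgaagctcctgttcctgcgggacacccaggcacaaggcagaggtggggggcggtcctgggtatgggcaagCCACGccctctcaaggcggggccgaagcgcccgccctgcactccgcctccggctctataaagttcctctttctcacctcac
Tnfrsf17: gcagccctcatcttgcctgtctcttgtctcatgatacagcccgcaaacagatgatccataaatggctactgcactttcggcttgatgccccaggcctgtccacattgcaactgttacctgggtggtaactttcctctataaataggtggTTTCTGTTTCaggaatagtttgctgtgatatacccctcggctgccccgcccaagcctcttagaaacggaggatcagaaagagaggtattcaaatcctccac
Pou2af1: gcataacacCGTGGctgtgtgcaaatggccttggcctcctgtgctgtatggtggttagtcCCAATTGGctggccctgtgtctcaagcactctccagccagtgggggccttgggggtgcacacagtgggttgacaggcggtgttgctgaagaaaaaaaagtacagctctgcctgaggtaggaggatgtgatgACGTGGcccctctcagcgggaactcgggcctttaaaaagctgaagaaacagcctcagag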

How the data were processed

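The authors sorted LSK cells, amplified 10 ng of RNA from each pool and hybridized it, labeled with Cy3, to Agilent whole mouse genome arrays. The authors deposited the scanner intensities of each array, from Feature Extraction 9.5.3.1 per the file headers (9.1 in the submitters' processing notes). That software subtracts background, removes trends within an array, and enters a surrogate intensity for 25.2% to 33.2% of spots. A deposited table of all arrays repeats these intensities, unscaled between arrays. Labels gave genotype and replicate, and file headers gave the slide.

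Control spots and outlier spots (0.124% to 0.224%) were left out, and log2 values were taken relative to the 75th percentile of the array. Of 41174 probes, 22008 were measured on all 4 arrays and well above background in both pools of 1 genotype or the other. These were tested in limma 3.58.1 (R 4.3.3; lmFit, eBayes), genotype being the only term, with Benjamini-Hochberg adjustment. On simulated arrays with these probes, 98.5% of 200 probes given a log2 change of 3 were called, as were 224 probes with no change. The simulated arrays were independent, with limma's spread and no slide effect, so these figures need not hold for the real arrays. Same-numbered arrays share a slide, and their deviations from genotype means correlated at 0.266, so a fit with the slide as block is also given. Slides were scanned in separate sessions per the file headers. The p-values measure the spread between pools, slide and session included, and the number of arrays limits precision. A fold against an array not well above background is a bound, taken at the lowest signal well above background there.

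The genes and all 16 other lists were chosen with earlier results of these data known. Text names every probe of the 7 genes, partner-list genes, genes of other lists that met the criteria or otherwise their 3 brightest, and the 5 symbols nearest *Igj*. Some single genes that this rule takes are not reported here. The brightest probe stands for a gene. Probe positions are those of the array on mm9, whose exon annotation was not used here. RefSeq accessions on the array matched a GRCm38.p6 gene table for 18754 of 19897. Alternatives covered scaling, background, filters, block, test and each array left out.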

Additional observations from a re-analysis of the deposited data

How the results depend on the processing

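Every tested probe of the 7 genes stayed lower on slide 1 under each alternative run on the levels, and the median over them was -1.47 with normexp background correction instead of -3.00. Of the genotype differences, those of *Irf4* (-3.54 to -0.51), *Sdc1* (-2.62 to -0.78) and *Pou2af1* (-2.32 to -0.26) kept their sign over all alternatives. Those of both *Igj* probes (-2.41 to 0.56 for the brighter) and of *Tnfrsf17* (-4.15 to 0.82) turned without Meis1-deficient replicate 1, and that of *Xbp1* (-0.54 to 0.42) with median centering and without replicate 1 of either genotype. The median over the genes ranged from -2.40 to -0.20 as single arrays were left out. Of these probes, 1 met the criteria with no filter on dim probes, 1 with the replicate block (slide), and 0 to 4 as single arrays were left out, beside 0.714%, 1.99% and 0.486% to 10.1% of all tested probes. Those with no overlap and lower were 1 with normexp, 1 with the filter on all 4 arrays, and 2 to 7 as single arrays were left out, beside 7.80%, 8.13% and 23.3% to 35.2% of all tested probes.

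Over all tested probes, 132 were lower and 30 higher by the criteria, and 0 had an adjusted p under 0.05 by limma (618 had an unadjusted p under 0.05). Probes with an adjusted p under 0.05 were 50 with the replicate block, 3 with no filter, 690 without Meis1-deficient replicate 1 and 2 without control replicate 2. Lower and higher probes were 47 and 2 with normexp, 43 and 10 with the filter on all 4 arrays, 307 and 130 with the replicate block, 23 and 7 with the methods' t-test, and 85 and 16 with an intensity trend. Higher probes were 14 with no scaling, which moved the median of all probes by -0.38, and 100 with no filter. As single arrays were left out, lower probes ranged from 57 (without control replicate 1) to 1705 (without Meis1-deficient replicate 1) and higher ones from 34 to 510. Genes of other lists meeting the criteria as lower were 4, with 2 under median centering, 9 with the block, 1 with the methods' t-test and 0 to 10 as arrays were left out. Genes meeting them as higher were 1, with 0 under quantile normalization, no scaling, normexp, no filter, the methods' t-test and the intensity trend, and 0 to 1 as arrays were left out. The cause of these shifts was not tested. With an array left out, limma takes the spread of the remaining lone array from the other genotype.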

Other observations

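Of the 156 tested genes in the 16 other lists, 5 met the criteria. Beside *Ell2*, these were *Hlf*, a transcription factor of stem cells (log2 fold change -2.42, SE 0.55), *Elane*, neutrophil elastase (-1.57, SE 0.42), *Cxcl12*, a stromal chemokine (at least 5.11-fold lower, being not well above background on either Meis1-deficient array), and *Rhag*, an erythroid membrane protein (1.72, SE 0.47), with adjusted p from 0.846 to 0.983 by limma. *Hlf* and *Cxcl12* missed the criteria with the methods' t-test, as did *Cxcl12* with normexp (log2 fold change -0.39). Without control replicate 1, none of the 5 met the criteria, and *Rhag* did not whichever array was left out. *Elane* was also lost without Meis1-deficient replicate 1 or control replicate 2, and with median centering, no filter, normexp or an intensity trend.

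Median log2 differences between genotypes on each slide are given for some of the other lists. Megakaryocyte markers had medians of 0.37 on slide 1 and -1.03 on slide 2 (9 genes, with *Itgb3* and *Pf4* at log2 fold changes of 0.30 and -1.35), stromal and endothelial markers 0.47 and -1.59 (5 genes), and interferon-stimulated genes 0.17 and -0.60 (19 genes, with *Ifitm3* and *Rsad2* at 0.14 and -0.21). Granulocyte and monocyte markers (14 genes) had -0.0049 and 0.12, erythroid markers (9 genes) -0.17 and 0.030, and LSK and HSC markers (13 genes) -0.079 and -0.14. T and NK cell markers, of which 5 of 14 were tested, had 2 genes well above background on all 4 arrays, *Il2rb* and *Klrb1c*, at log2 fold changes of -0.11 and -0.90, and mast cell and basophil markers, of which 3 of 9 were tested, had medians of -0.62 and -0.35 (*Cpa3*, *Mcpt8* and *Hdc* at -0.48, 1.54 and -1.35).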
